A study of Mus musculus with 6 samples.

Results

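The regulators of spermatogonial stem cells described here are 10 genes: Ret, Gfra1, Zbtb16, Sall4, Etv5, Id4, Foxo1, Taf4b, Lin28a and Uchl1. Their members on the array are the probe sets whose single gene symbol is 1 of these 10, which gave 26 probe sets of 45037 and 10 genes of the 18193 named by a single symbol. Expression was measured in testes of mice at postnatal day 21, in 3 samples of Nxf2 knockout (KO) mice and 3 of wild-type (WT) mice, each on its own Affymetrix array. Nxf2 belongs to a family of nuclear RNA export factors. The labels give KO or WT, the tissue and the age, and do not describe the allele, the strain, the number of animals behind a sample or any agent given. All p-values therefore measure the spread between these samples. The whole testis was used, so a signal sums all its cell types.

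Spermatogonial stem cells sit among the undifferentiated spermatogonia at the base of the seminiferous tubule, where they either renew themselves or give rise to cells that go on to meiosis. The growth factor GDNF, made by somatic cells around them, binds the co-receptor GFRA1 and activates the receptor tyrosine kinase RET, and the signal passes through kinases of the SRC and PI3K-AKT pathways to transcription factors such as ETV5. PLZF (the product of Zbtb16), SALL4, ID4, FOXO1, TAF4B and LIN28A act in the nucleus or on RNA in these cells, and most of the 10 genes have been linked to stem cell upkeep through mutant mice or cultured germ cells.

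RefSeq promoters (build GRCm38.p6) were matched for 6 of the 10 members: Lin28a, Uchl1, Gfra1, Id4, Etv5 (with 2 starts) and Foxo1. Zbtb16, Sall4, Ret and Taf4b had no entry. Those of Lin28a and Uchl1, which rose in the KO samples, and of Id4 and Etv5, which did not pass the test, are shown as examples of upstream sequence of called and uncalled members; the other matched windows are described after them. Each is the 250 bases before the start, 5′ to 3′ on the gene's strand: chr4:134018817-134019066 (minus strand) for Lin28a, chr5:66675871-66676120 (plus) for Uchl1, chr13:48260866-48261115 (plus) for Id4 and chr16:22439571-22439820 (minus) for the first start of Etv5. Capitals mark matches on either strand to 3 short motifs. The GC box, a common promoter element that SP1 and related factors bind, is GGGCGG. The CCAAT box, another common element, bound by NF-Y, is named by its letters. The motif of FOXO factors, which include the member Foxo1, was searched as TGTTTAC.
Lin28a: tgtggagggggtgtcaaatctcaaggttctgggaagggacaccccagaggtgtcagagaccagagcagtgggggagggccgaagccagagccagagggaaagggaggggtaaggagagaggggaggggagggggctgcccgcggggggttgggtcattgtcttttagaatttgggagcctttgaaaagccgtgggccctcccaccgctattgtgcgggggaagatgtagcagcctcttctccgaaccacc
Uchl1: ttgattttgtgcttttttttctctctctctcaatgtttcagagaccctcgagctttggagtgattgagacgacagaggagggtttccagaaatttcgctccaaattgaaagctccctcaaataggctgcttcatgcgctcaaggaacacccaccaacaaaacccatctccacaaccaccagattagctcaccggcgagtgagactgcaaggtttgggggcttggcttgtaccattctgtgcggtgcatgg
Id4: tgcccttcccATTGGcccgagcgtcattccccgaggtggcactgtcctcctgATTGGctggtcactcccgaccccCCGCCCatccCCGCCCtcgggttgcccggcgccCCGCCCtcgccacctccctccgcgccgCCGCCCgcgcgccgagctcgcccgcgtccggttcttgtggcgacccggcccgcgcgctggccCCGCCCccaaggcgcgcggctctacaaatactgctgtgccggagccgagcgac
Etv5: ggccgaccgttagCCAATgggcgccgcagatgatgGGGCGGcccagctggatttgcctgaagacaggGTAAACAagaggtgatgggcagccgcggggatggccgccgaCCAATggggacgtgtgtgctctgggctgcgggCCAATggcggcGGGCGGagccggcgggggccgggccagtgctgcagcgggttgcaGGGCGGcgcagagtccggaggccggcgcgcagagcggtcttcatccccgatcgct

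The Lin28a and Uchl1 windows held none of these motifs, and each had 7 CpG dinucleotides, close to the median of 6 over 32851 mouse promoters of the same length. The Id4 window had 35 CpG, a number that 2.97% of promoters reach, with 5 GC boxes and 2 CCAAT boxes. The Etv5 window had 27 CpG, 3 GC boxes, 3 CCAAT boxes and 1 FOXO motif at position -183. The windows not printed, all of members that did not pass, lay between: Gfra1 had 10 CpG, no GC box and 1 CCAAT box, the second start of Etv5 had 18 CpG, no GC box and 1 CCAAT box, and Foxo1 had 20 CpG, 2 GC boxes and 3 CCAAT boxes. With 2 called members among the 6 matched, no contrast between called and uncalled members can be read from these windows. No matches overlapped. Over all 32851 promoters, 32.7% held a GC box, 33.8% a CCAAT box and 3.17% the FOXO motif. An E-box (CACGTG) and an ETS core (CCGGAAG), searched in the same way and present in 6.02% and 6.91% of promoters, were in none of the windows of the 6 matched members. A match is a string of letters in this window and not a binding site.

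Nxf2 itself, represented by 1 probe set (1420585_a_at), read 116.0, 106.2 and 130.8 in KO replicates 1 to 3 and 374.3, 340.4 and 385.9 in WT replicates 1 to 3. It fell by 1.59 on the log2 scale (SE 0.100, limma adjusted p = 0.000488), and all KO values lay below all WT values. No label says where the probes lie relative to the deleted part of the gene. Values are MAS5 signal intensities on a linear scale. The mean signal of each array, without the lowest and highest 2% of probe sets, was 150.0. The ratios of 3′ to 5′ control signals, a sign of RNA quality, were 1.77 to 2.19 for Actb and 1.42 to 1.62 for Gapdh over the 6 arrays.

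Of the 26 member probe sets, 19 were bright enough to be tested and 7 were below the limit of a mean signal of 20.5, and every member had at least 1 tested probe set. In the limma fit over all 27022 tested probe sets, 7 member probe sets rose in the KO samples at a Benjamini-Hochberg adjusted p under 0.05, against a background of 2.26% of all tested probe sets called higher. None fell at that threshold, against 5.23% of all tested probe sets called lower. With only 19 tested, a count of none lies near that share. None was lower at an unadjusted p under 0.05 either, a threshold for which no share over all probe sets was computed. With each gene represented by its brightest probe set, 5 of 10 members rose (Zbtb16, Lin28a, Ret, Sall4 and Uchl1), while 2.98% of the 12971 genes tested rose and 7.37% fell. The other 5 (Etv5, Foxo1, Taf4b, Id4 and Gfra1) did not pass. The members were chosen with earlier results of these data known, so these shares are not a test of them. All 3 KO values lay above all 3 WT values for 7 of the 10 members and for 21.5% of all genes tested. The median log2 fold change (KO minus WT, on log2(signal + 7)) was 0.30 over the 10 members and 0.036 over all genes. In a whole testis, more cells of a type and more RNA per cell cannot be told apart, and neither can fewer cells and less RNA. Leaving out 1 sample at a time changed the count of members called higher from 5 to 2 without WT replicate 1, to 3 without KO replicate 2, KO replicate 3, WT replicate 2 or WT replicate 3, and to 4 without KO replicate 1. Those 4 included Etv5 and not Ret or Uchl1. The count of all probe sets called higher also fell in each of these fits, and was lowest without WT replicate 1.

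**Figure D1:**
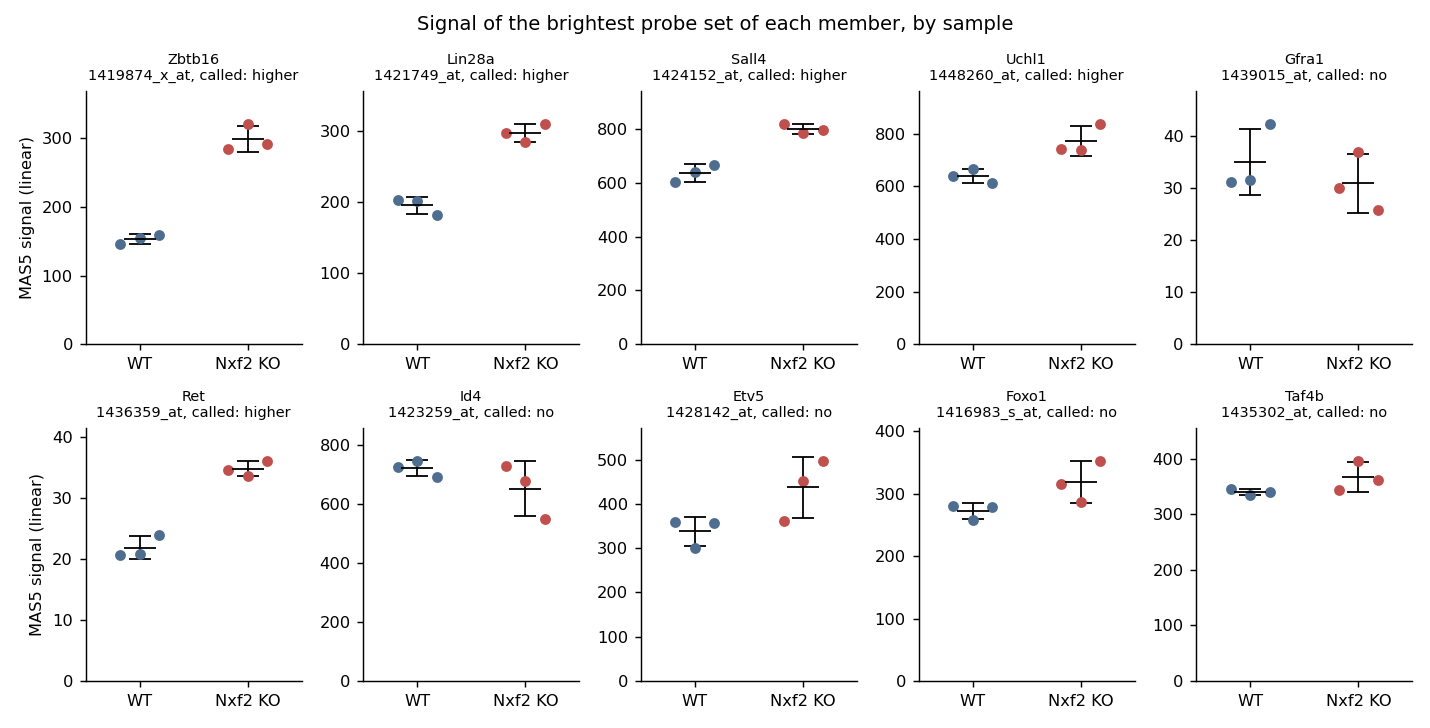
MAS5 signal (linear axis from 0) of the brightest probe set of each of the 10 members, in WT (blue) and Nxf2 KO (red) samples; points are replicates 1 to 3 from left to right, and bars show the mean ± SD (n = 3). The groups separate most widely for Zbtb16 (WT up to 160.0, KO from 285.2), and they overlap for Gfra1, Id4 and Taf4b.

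Of the receptor pair, only Ret was called higher. Ret, the signalling receptor for GDNF, read 34.6, 33.7 and 36.2 in the KO samples and 20.7, 20.8 and 24.0 in the WT samples (probe set 1436359_at). All KO values were above all WT values, and the group means were 34.8 ± 1.24 and 21.9 ± 1.88 (SD, n = 3 each). Ret rose by 0.54 on the log2 scale (SE 0.134, 1.45-fold, limma adjusted p = 0.0398). This signal lies near the lower limit for testing, and the call was lost in each of the 6 fits that left out 1 sample, where the adjusted p ran from 0.0571 to 0.154, and with quantile normalization (0.0513), median centring (0.0511) or no dim filter (0.0828). The direction stayed the same in those fits. The second Ret probe set, 1421359_at, was below the limit and was not tested: it read 13.8, 18.8 and 25.9 in KO and 12.0, 10.7 and 12.5 in WT, again without overlap.

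Gfra1, the co-receptor that binds GDNF, gave 30.0, 36.9 and 25.7 in KO and 31.1, 31.6 and 42.3 in WT (1439015_at). The groups overlapped, with the highest value in a WT sample and the lowest in a KO sample. Its log2 fold change was -0.15 (SE 0.167, 95% interval -0.52 to 0.22, limma adjusted p = 0.583), so a rise as large as the 0.54 estimated for Ret lies outside its interval; the difference between the 2 genes was not tested. Both other Gfra1 probe sets were dim in all samples, at 1.26 to 9.93 (1421973_at) and 6.48 to 10.5 (1450440_at), and were not tested.

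Zbtb16 showed the largest rise among the members. It encodes PLZF, a zinc finger transcriptional repressor needed for long-term stem cell maintenance. Its brightest probe set, 1419874_x_at, read 285.2, 321.2 and 291.4 in KO and 145.6, 155.3 and 160.0 in WT, so the lowest KO sample was far above the highest WT sample. The means were 299.3 ± 19.2 and 153.6 ± 7.35 (SD, n = 3 each), and the log2 fold change of 0.93 (SE 0.0876, 95% interval 0.74 to 1.13, 1.91-fold) had a limma adjusted p of 0.00273. Only 0.0888% of all tested probe sets rose by as much or more. The call held in all 15 alternative settings, with log2 fold changes of 0.81 to 1.02.

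The suffix _x_at marks a probe set whose probes can match other transcripts, so the other Zbtb16 probe sets bear on how firmly that size can be read. Probe set 1439163_at, without such a suffix, read 110.8, 118.3 and 126.3 in KO and 71.8, 92.5 and 78.4 in WT. It also rose without overlap, by 0.52 (SE 0.123, 95% interval 0.24 to 0.79, limma adjusted p = 0.0338), a smaller estimate; the intervals of the 2 probe sets overlap from 0.74 to 0.79. Its call was lost without KO replicate 1 (adjusted p = 0.0558), KO replicate 2 (0.0786), KO replicate 3 (0.0968), WT replicate 1 (0.145) or WT replicate 3 (0.0702), and with no dim filter (0.0646) or no intensity trend in the fit (0.0544). The dim probe set 1427638_at, not tested, read 14.7, 14.6 and 11.5 in KO against 10.4, 11.03 and 5.25 in WT.

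Sall4 encodes a zinc finger factor that works with PLZF and with histone deacetylase complexes in spermatogonia. It read 819.3, 785.0 and 796.2 in KO and 602.0, 641.6 and 667.2 in WT (1424152_at). The KO samples lay close together and above all WT samples. Sall4 rose by 0.33 (SE 0.0561, 95% interval 0.20 to 0.45, 1.25-fold, limma adjusted p = 0.0112), a modest change measured with the smallest SE of the 19 tested member probe sets. The call was lost without WT replicate 1 (adjusted p = 0.0744), which had the lowest WT value, and with no intensity trend (0.0622). The second probe set, 1424153_s_at, was near the limit for testing and its groups overlapped (23.3, 32.1 and 23.5 in KO, 22.4, 25.3 and 25.1 in WT, log2 fold change 0.083, adjusted p = 0.752).

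**Figure D2:**
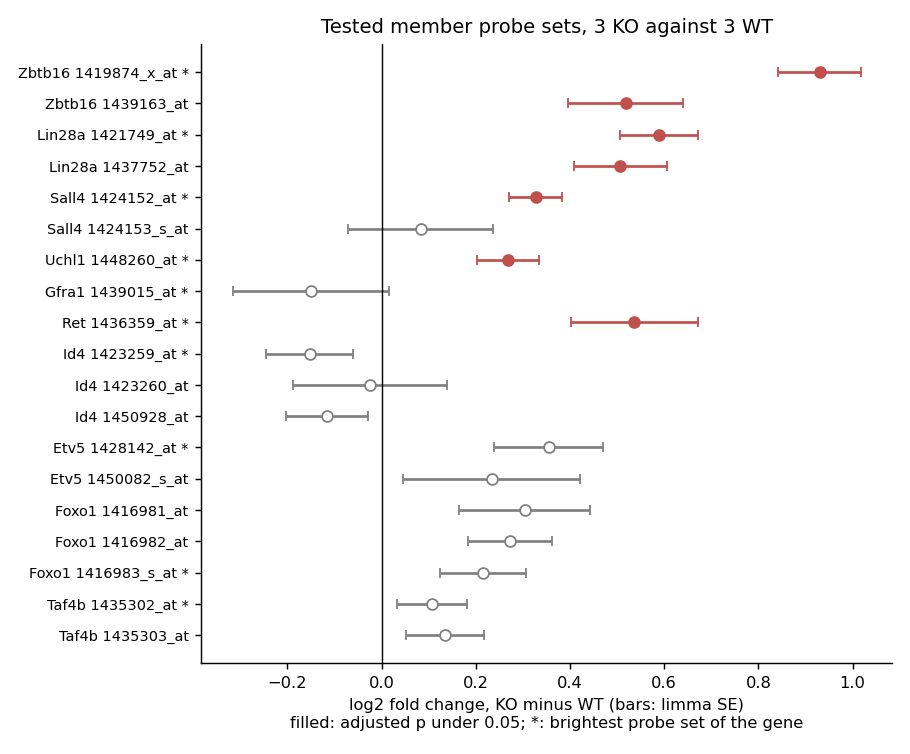
Log2 fold change (KO minus WT, horizontal axis) of the 19 tested member probe sets, with limma's standard error as bars; filled points have an adjusted p under 0.05 and an asterisk marks the brightest probe set of a gene. The 7 filled points run from 0.27 (Uchl1) to 0.93 (Zbtb16), and the 3 Id4 probe sets and Gfra1 lie below 0.

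Etv5, an ETS family transcription factor that responds to GDNF and FGF signals, gave 362.8, 451.6 and 498.2 in KO and 358.6, 301.0 and 356.7 in WT (1428142_at). All KO values were above the WT values, but KO replicate 1 exceeded the highest WT sample by little. The log2 fold change of 0.35 (SE 0.116, 95% interval 0.10 to 0.61) did not pass (limma adjusted p = 0.0868), although it is larger than that of Sall4, whose samples varied less. Without KO replicate 1 it was 0.48 and passed (adjusted p = 0.0328); without KO replicate 3 it was 0.26 (adjusted p = 0.243). It also passed with the replicate number as a block (adjusted p = 0.0370) and with array weights (adjusted p = 0.0368). Probe set 1450082_s_at read 41.1, 56.1 and 73.3 in KO and 53.5, 42.2 and 43.3 in WT, with overlap (log2 fold change 0.23, adjusted p = 0.435). On both probe sets KO replicate 3 was the highest of the 6 samples and KO replicate 1 the lowest of the 3 KO samples. The dim probe set 1420998_at was not tested, and its values of 8.72 to 19.4 overlapped between groups.

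Foxo1, the forkhead factor whose location in the nucleus is controlled by PI3K-AKT signalling, had 3 tested probe sets, and none passed. The brightest, 1416983_s_at, read 315.8, 286.4 and 353.1 in KO and 281.0, 258.2 and 278.5 in WT. Probe set 1416982_at read 277.1, 245.9 and 298.3 against 226.1, 227.6 and 220.2, and 1416981_at read 52.3, 57.7 and 69.3 against 46.6, 43.5 and 50.5. In all 3 the KO samples lay above the WT samples, and KO replicate 3 was the highest. The log2 fold changes were 0.22 (SE 0.0906, limma adjusted p = 0.154), 0.27 (SE 0.0894, adjusted p = 0.0868) and 0.30 (SE 0.139, adjusted p = 0.181). With array weights 1416982_at passed, at 0.21 (adjusted p = 0.0337). Probe sets of 1 gene share the same RNA, so their agreement is no added replication. The fourth, 1456529_at, was dim (13.5 to 24.6 in KO, 4.85 to 14.5 in WT) and was not tested.

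Id4 encodes an inhibitor of basic helix-loop-helix transcription factors, and its expression marks a fraction of undifferentiated spermatogonia with high stem cell activity. It read 728.9, 677.2 and 549.7 in KO and 725.1, 746.4 and 691.4 in WT (1423259_at). KO replicate 1 fell among the WT samples, KO replicate 2 just under them and KO replicate 3 well below. The log2 fold change was -0.15 (SE 0.0925, 95% interval -0.36 to 0.053, limma adjusted p = 0.301), and without KO replicate 3 it was -0.036. Probe set 1450928_at showed the same order of KO replicate 3 below all others (562.0, 628.9 and 486.8 in KO, 581.9, 631.7 and 597.6 in WT, log2 fold change -0.12, adjusted p = 0.405). Probe set 1423260_at, dimmer, overlapped fully, with 57.0, 72.3 and 53.6 in KO and 62.4, 74.3 and 50.3 in WT (-0.024, adjusted p = 0.938).

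Lin28a encodes an RNA-binding protein that blocks maturation of let-7 microRNAs and is found in undifferentiated spermatogonia in the postnatal testis. It read 297.3, 285.7 and 310.6 in KO and 203.1, 201.7 and 182.5 in WT (1421749_at). The 2 groups stood well apart, with little spread within each, at 297.8 ± 12.5 and 195.8 ± 11.5 (SD, n = 3 each). Lin28a rose by 0.59 (SE 0.0831, 95% interval 0.40 to 0.77, limma adjusted p = 0.0062). The call held in all 15 alternative settings, with an adjusted p of at most 0.045.

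The second Lin28a probe set gave nearly the same size. It read 226.3, 201.0 and 204.3 in KO and 146.3, 157.8 and 134.4 in WT (1437752_at), without overlap, and rose by 0.51 (SE 0.0983, 95% interval 0.29 to 0.73, limma adjusted p = 0.0176). Its call was lost without KO replicate 1 (adjusted p = 0.0525) and without WT replicate 1 (0.0885). Both Lin28a probe sets were thus tested and called, and neither has a suffix for shared probes.

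Taf4b encodes a TFIID subunit found mainly in germ cells and needed to keep spermatogenesis going in adult males. It read 344.2, 396.5 and 361.9 in KO and 346.1, 334.8 and 340.1 in WT (1435302_at). The lowest KO value lay inside the WT range, and the log2 fold change of 0.11 (SE 0.0745, 95% interval -0.059 to 0.27) did not pass (limma adjusted p = 0.370). Probe set 1435303_at gave 304.3, 351.3 and 323.0 against 301.3, 309.6 and 278.2, also with overlap (0.13, adjusted p = 0.305). The third, 1431193_at, was dim, at 6.27 to 13.1, and was not tested.

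Uchl1 encodes a ubiquitin hydrolase that is abundant in spermatogonia and in neurons, and in the testis it is used as a marker of spermatogonia. Its only probe set, 1448260_at, read 739.7, 736.3 and 836.3 in KO and 639.8, 663.8 and 610.3 in WT. The KO samples were all higher, and KO replicate 3 stood above the other two. Uchl1 rose by 0.27 (SE 0.0649, 95% interval 0.12 to 0.41, 1.20-fold, limma adjusted p = 0.0364). As with Ret, the call was lost in each of the 6 fits without 1 sample, where the adjusted p ran from 0.0503 to 0.131, and with median centring (0.0696), no dim filter (0.0744) or no intensity trend (0.108). Among the 4 tested nerve and glia markers (Tubb3, Mbp, Sox10 and S100b), 0 were called by limma in either direction and 1 was higher at an unadjusted p under 0.05. The summed signal of all 9 nerve and glia markers on the array was 435 to 654 in KO and 353 to 474 in WT. Tubb3 alone made most of that sum, at 282.7, 365.5 and 444.0 in KO and 281.7, 242.4 and 336.6 in WT. That sum includes Nefl, Nefm, Prph, Elavl4 and Stmn2, defining markers of neurons, which were below the limit for testing. The part of nerve tissue in the Uchl1 value was not tested.

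**Figure D3:**
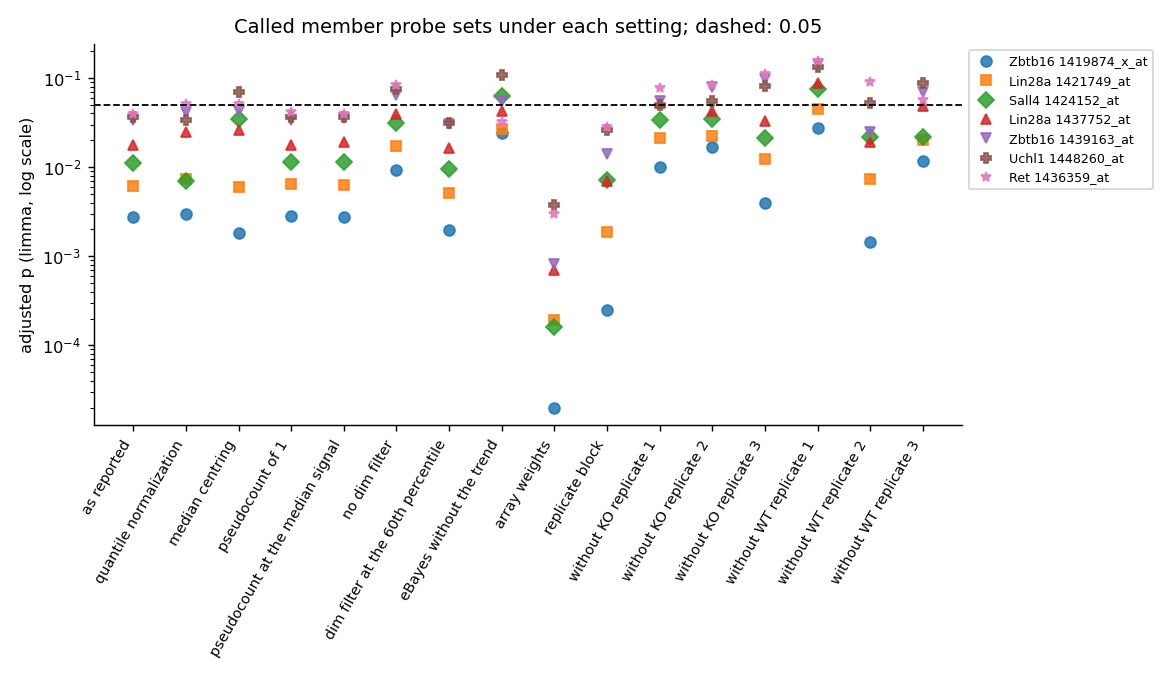
Limma adjusted p (log axis) of the 7 called member probe sets as reported and under the 15 alternative settings (Ret was too dim for the 60th percentile filter), with the threshold of 0.05 dashed. The brightest probe sets of Zbtb16 and Lin28a stay under the line throughout, while Uchl1 and Ret cross it in every fit that leaves out 1 sample.

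The 10 members were also described sample by sample. The median deviation of the 10 members from the WT mean was 0.21, 0.26 and 0.38 in KO replicates 1 to 3 and between -0.0057 and 0.044 in the WT samples (log2, brightest probe sets). Without KO replicate 3 the median log2 fold change of the members was 0.23.

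Among other genes of undifferentiated spermatogonia the calls went in the same direction. This list, like the members, was chosen with earlier results of these data known, so it is no independent support. Of 32 listed genes, 28 were named on the array, 19 were tested, 6 rose and 0 fell in the limma fit (12 higher and 0 lower at an unadjusted p under 0.05), with a median log2 fold change of 0.32. The share of all genes at that unadjusted threshold was not computed, so the count of 12 has no background beside it. The 6 were Itga6, Piwil4, Upp1, Ddit4, Foxc2 and Pou3f1. The log2 fold change was above 0 for 16 of the 19 tested genes. It was below 0, without a call, for Cdh1 (-0.13), Bmi1 (-0.091, all KO below all WT values) and Epcam (-0.036). Pou5f1, Lhx1, Neurog3, Thy1, Pax7, Eomes, Utf1, Egr3 and Pdx1 were below the limit for testing. Itga6, an integrin used to enrich spermatogonia, read 646.6 ± 43.7 in KO samples against 509.5 ± 15.6 in WT samples (SD, n = 3 each, as for the genes after it) and rose by 0.34 (adjusted p = 0.0171). Piwil4, the PIWI protein that directs piRNA-guided silencing in early male germ cells, had 119.4 ± 6.20 and 76.9 ± 9.44 (0.60, adjusted p = 0.0198). Foxc2, a forkhead factor reported in a quiescent fraction of spermatogonia, had 62.6 ± 4.59 and 39.2 ± 5.40 (0.60, adjusted p = 0.0302). Pou3f1, a POU factor induced by GDNF in cultured stem cells, had 81.2 ± 1.97 and 55.6 ± 5.17 (0.50, adjusted p = 0.0354). Upp1, a uridine phosphorylase, rose by 0.67 (adjusted p = 0.0203), and Ddit4, an mTORC1 inhibitor that PLZF activates, rose by 0.25 (adjusted p = 0.0296). The count of 6 was 0 without WT replicate 1, 2 without KO replicate 1 or KO replicate 3, 3 without KO replicate 2 or WT replicate 3, and 4 without WT replicate 2. It was 3 with no dim filter or with the 60th percentile as filter, and 9 higher and 1 lower with array weights.

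In the GDNF and RET pathway, Gdnf itself read 22.9 ± 2.01 in KO samples against 19.8 ± 10.4 in WT samples, with WT values from 12.0 to 31.6, so its log2 fold change of 0.23 (SE 0.238, limma adjusted p = 0.555) is poorly determined. Of 20 tested genes of the pathway, 1 rose and 1 fell, near the shares over all genes, and the median was 0.21. At an unadjusted p under 0.05, 9 were higher and 1 lower, with no share over all genes computed for that threshold. With the replicate block 6 were called higher and 1 lower, and with array weights 7 and 1. Both settings also called more probe sets over the whole array. Ptpn11, the phosphatase SHP2 that carries receptor signals to the MAP kinases, rose from 365.3 ± 33.5 to 463.3 ± 38.8 (0.34, adjusted p = 0.0442). Artn, a GDNF family ligand that binds a different co-receptor, fell from 100.3 ± 20.2 to 48.6 ± 10.1 (-0.95, adjusted p = 0.0154). No gene of this pathway was called higher without KO replicate 2, KO replicate 3, WT replicate 1 or WT replicate 2, and none lower without WT replicate 1. Among 12 tested niche ligands and receptors outside that pathway, 0 were called in limma (5 higher and 0 lower at an unadjusted p under 0.05). With the replicate block 6 of the 12 were called higher, and with array weights 1 higher and 1 lower. The 2 of lowest p were Kitl, the KIT ligand of Sertoli cells (751.1 ± 52.1 in KO, 632.2 ± 43.1 in WT, adjusted p = 0.0617), and Cxcr4, a chemokine receptor of stem cells (279.4 ± 83.6 and 187.9 ± 22.4, adjusted p = 0.0906).

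In the PI3K, FOXO and mTOR list, 0 of 12 tested genes were called by limma (1 higher at an unadjusted p under 0.05), with Eif4ebp1 at 0.34 (adjusted p = 0.111) and Mtor at -0.11 (adjusted p = 0.185). In the LIN28 and let-7 list, 0 of 10 were called (2 higher and 1 lower at an unadjusted p under 0.05). The replicate block gave 1 higher in each of these lists, and array weights gave 2 and 1; without WT replicate 2, 1 gene of the second list was called higher. Trim71, a let-7 target, was at 0.60 with scattered WT values of 188.1, 237.4 and 125.7 (adjusted p = 0.0788), and Igf2bp3, an RNA-binding protein, was at -0.28 (adjusted p = 0.112). Lin28b, the paralogue of Lin28a, was below the limit for testing, with means of 13.5 in KO and 15.7 in WT.

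Of 14 tested cofactors of PLZF and SALL4, 1 rose: Rbbp7, a histone-binding subunit of deacetylase complexes, by 0.18 (limma adjusted p = 0.0457), and the list median was 0.020. No cofactor was called higher in any of the 6 fits without 1 sample, nor with median centring, no dim filter or no intensity trend, and the replicate block gave 2. Of 16 tested genes listed under TFIID, 1 fell, at -0.23 (adjusted p = 0.0343), and the list median was -0.048. It was Tbpl1, a TBP-related factor needed in spermatids and not itself a TFIID subunit. No gene of this list was called lower without KO replicate 2, KO replicate 3, WT replicate 1 or WT replicate 3. The same held with median centring, no dim filter or no intensity trend. The replicate block gave 1 higher and 3 lower, and array weights 2 and 5. Taf4, the paralogue of Taf4b, was at 0.11 (adjusted p = 0.407). Of 12 tested paralogues of the members, 1 rose: Sall1, from 99.3 ± 10.2 to 140.2 ± 4.97 (0.47, adjusted p = 0.0308). No paralogue was called with no dim filter, or in the fits without 1 sample other than that without WT replicate 2.

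**Figure D4:**
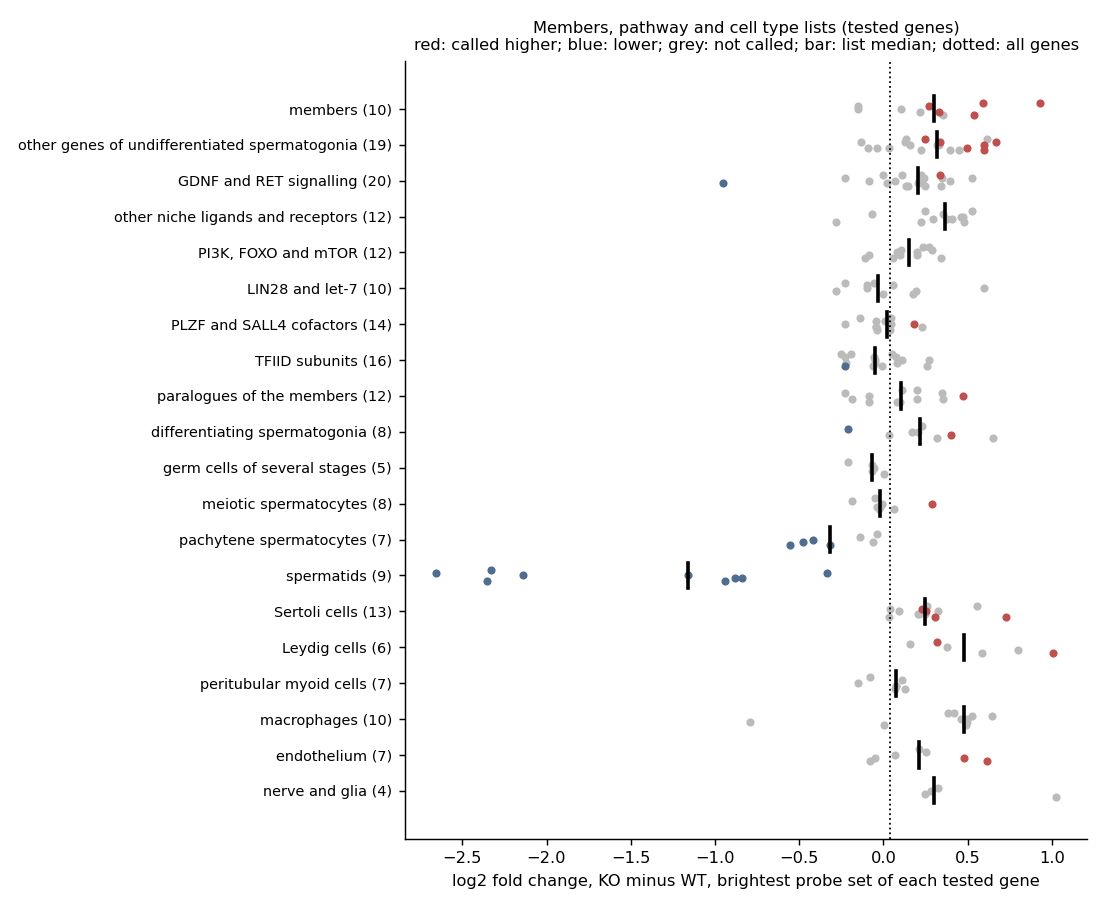
Log2 fold change (KO minus WT, horizontal axis) of each tested gene by its brightest probe set, in the 10 members and in each pathway or cell type list; red and blue points were called higher and lower, black bars are list medians, and the dotted line is the median of all 12971 genes (0.036). Members and other genes of undifferentiated spermatogonia have medians of 0.30 and 0.32, and spermatid markers lie farthest to the left, with a median of -1.16.

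Markers of other cells in the testis were called as well, and their values stand here beside those of the members. All 9 tested spermatid markers fell, with a median of -1.16; the 4 of lowest p were Actl7b, Odf1, Capza3 and Zpbp2. That count of 9 was 1 without WT replicate 1, 6 of 8 tested without WT replicate 3, 4 with no intensity trend and 6 of 10 with no dim filter. Of 7 pachytene spermatocyte markers 4 fell (Pgk2, Aurkc, Adam3 and Ccna1), with a median of -0.32; this count was 1 without WT replicate 1 or with no intensity trend, and 2 without WT replicate 3 or with no dim filter. Of 8 meiotic spermatocyte markers 1, Tex11, rose and 0 fell (median -0.023), with none called in any fit without 1 sample, with median centring or with no trend, and of 5 genes expressed in germ cells of several stages 0 were called by limma (1 lower at an unadjusted p under 0.05), with Ddx4 at 1247 ± 95.1 in KO and 1304 ± 41.8 in WT. Of 8 markers of differentiating spermatogonia, Crabp1 rose by 0.40 (adjusted p = 0.0300) and Dmrtb1 fell (log2 fold change -0.21, adjusted p = 0.0359), with a median of 0.22. Without KO replicate 3, WT replicate 1 or WT replicate 2 none of these 8 was called, nor with no dim filter or no trend; without KO replicate 1 the count was 0 higher and 1 lower, and without KO replicate 2 or WT replicate 3 it was 1 and 0. The replicate block gave 3 higher and 1 lower, and array weights 6 and 1. Kit, which marks the step out of the undifferentiated state, was at 0.23 (182.1 ± 4.62 in KO, 154.2 ± 3.41 in WT, adjusted p = 0.121).

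The mean of all 13 tested Sertoli markers and all 6 tested Leydig markers was higher in the KO samples. Of 13 Sertoli cell markers 4 rose (Drd4, Wt1, Shbg and Inha) and 0 fell, with a median of 0.24 and summed signals of 9099 to 9830 in KO and 8184 to 8585 in WT. The count of 4 was 2 without KO replicate 1, KO replicate 2, KO replicate 3 or WT replicate 3, 1 without WT replicate 1 or WT replicate 2, 1 with median centring, no dim filter or no trend, 8 with the replicate block and 9 with array weights. The last 2 settings also called more probe sets higher over the whole array, and the others fewer. Of 6 Leydig cell markers 2 rose (Star and Scarb1) and 0 fell, with a median of 0.48 and sums of 2648 to 3869 against 2196 to 2463. The count of 2 was 0 without KO replicate 3 or WT replicate 1 and with no dim filter or no trend, 1 without KO replicate 1 or with median centring, and 5 with the replicate block or array weights. Of 7 tested endothelial markers 2 rose (Tek and Robo4) and 0 fell, with a median of 0.21. The sums over all 8 on the array, which include the untested Tie1, were 274 to 373 against 247 to 264. The count of 2 was 1 without KO replicate 2 and 0 in the other 5 fits without 1 sample. Macrophage markers had a median of 0.48 and sums of 2203 to 3387 against 1521 to 2148, with 0 of 10 called by limma (5 higher and 1 lower at an unadjusted p under 0.05), 3 higher without KO replicate 1, and 4 higher and 1 lower with the replicate block. Peritubular myoid markers had a median of 0.072, with 0 of 7 called and 0 at an unadjusted p under 0.05, and sums of 2908 to 3412 against 2808 to 2999. The summed signal of the 10 members was 3958 to 4059 in KO and 3353 to 3355 in WT. The part of a changed mix of cells in the members' values was not tested. Some somatic cells also express Ret, Gfra1, Foxo1, Etv5 or Id4, and a whole-testis signal does not separate them from germ cells.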

How the data were processed

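The deposited values are signal intensities per probe set on a linear scale, made with MAS5 per the submitters' processing notes, with 1 column per sample; the MAS5 version and the scaling target are not given in the sources used here. Per the labels' protocols, RNA was amplified and labelled with biotin. Of 45101 probe sets, 64 controls were left out. Symbols came from the platform annotation and were brought up to date by Entrez number with RefSeq's gene table (GRCm38.p6), where 34741 of 34945 were found (99.4%). Probe sets with several symbols were not used to name genes.

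Signals were taken as log2(signal + 7), a pseudocount set at the 25th percentile of the table, which understates changes of dim probe sets. Probe sets with a mean over the 6 arrays at or above the 40th percentile of means (20.5) were tested, 27022 in all. The test was limma 3.58.1 under R 4.3.3 (lmFit, then eBayes using an intensity trend; two-sided and without covariates), with Benjamini-Hochberg adjustment over all tested probe sets and calls at 0.05. The fit was tested on simulated data with independent normal noise at the residual spread of these arrays. It recovered 37.1% of log2 changes of 0.5, 77.5% of those of 1 and 94.0% of those of 2. A gene that did not pass can therefore hold a change of the size seen in most members. A gene was represented by its probe set of highest mean. From each list the called genes were named where they were 6 or fewer, otherwise the 4 of lowest p, and where none was called up to 2 of lowest p. Kit, Ddx4, Gdnf, Lin28b and Taf4 were named outside this rule, after their values were seen. Lists were described by counts and medians, with no test of a list. No share over all genes was computed at an unadjusted p under 0.05, so list counts at that threshold have no background beside them. List counts under an alternative setting are to be read beside the counts over all probe sets given in the last section. Precision is limited by having 3 arrays in each group. Detection calls were not used here, and no probe set has a background limit of its own.

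The members and lists were chosen with earlier results of these data known. Alternatives were quantile normalization, median centring, pseudocounts of 1 and 39, no filter on dim probe sets, the 60th percentile as filter, array weights, no intensity trend, a block for replicate number, and leaving out each sample. Use of probe sets without a shared-probe suffix only was added after seeing the data.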

Additional observations from a re-analysis of the deposited data

How the results depend on the processing

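Over the 104 refits of the 7 called member probe sets, all 104 kept their direction and 75 stayed called. The counts given are probe sets called higher, probe sets called lower, member probe sets called higher and members called higher, which were 610, 1414, 7 and 5 as reported. Median centring gave 353 probe sets higher and 3 members. Without the dim filter there were 188 higher, 817 lower, 4 member probe sets and 3 members; more probe sets tested raises the adjustment. Without the intensity trend there were 174, 569, 4 and 3. Array weights gave 3771 higher and 3446 lower, with 9 member probe sets and 6 members. Leaving out 1 sample gave 17 to 388 higher, 147 to 1159 lower, 2 to 5 member probe sets and 2 to 4 members, with fewer samples in each fit; the lowest values came without WT replicate 1. Probe sets without a shared-probe suffix gave 5 members. With the replicate number as a replicate block, 2173 were higher and 2330 lower, with 8 member probe sets and 6 members, Etv5 being the member gained there and with array weights. The labels do not say whether KO and WT samples of the same number belong together, and the numbers were not taken as pairs. The correlations of same-numbered deviations were 0.079, 0.457 and 0.266, and those of differently numbered ones ran from -0.334 to 0.112. Of the 6 samples, 5 correlated best with their own number. Deviations from a group mean cancel out over the samples of that group, so these correlations and this count are not independent of each other. Whether same-numbered samples shared a litter or day is not known. Uncalled values that changed sign were Gfra1 (0.036 with array weights), the Id4 probe set 1423260_at (0.039 with array weights, and -0.154 to 0.098 with 1 sample left out) and the Sall4 probe set 1424153_s_at (-0.038 to 0.146 with 1 sample left out). The cause was not tested for array weights, centring and the trend. Of 319 list medians, 34 moved by more than the spread between samples; no endothelial marker was left with the 60th percentile as filter. The dim signals of Ret, Gfra1 and Gdnf limit what can be said of that receptor system.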
